A study of Mus musculus with 10 samples.

Results

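Of the 16875 gene names in a table of 10 mouse colon tumors, 46 were named as subunits, activators or assembly factors of the proteasome (the letters Psm, one letter from a to g, and a number), and these entries are described here. Of 48 such symbols looked for, Psma8 and Psmb11 were not among the names used here, and all 46 that were passed the filter of a mean of at least 0.5 FPKM (fragments per kilobase of transcript, scaled by the mapped fragments of a library). The members were chosen by name alone and 5 of them were set against the other 41. These 5 were the inducible catalytic subunits Psmb8, Psmb9 and Psmb10 of the immunoproteasome and the subunits Psme1 and Psme2 of the PA28 activator. No 2 members had identical values, but Psmb5 shared all 10 values with Mir686, Psmd1 with Armc9 and Gm21972, and Psmg3 with Tmem184a and Gm26938, so that each of the 3 was counted once and its values stand for more than 1 gene.

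The tumors were macrodissected from mice on a C57BL/6 background that had entered the experiment at 6 to 10 weeks of age and had received the carcinogen azoxymethane (AOM) and 3 cycles of 2% dextran sulfate sodium (DSS), a detergent-like polymer that injures the colon. They were collected 120 days after AOM. The 5 control tumors, titled Wls WT, carried Wls flox/flox alleles. The 5 Villin-WlscKO tumors (below also cKO) carried Villin-Cre ERT2 with Wls flox/flox. Wls carries Wnt ligands through the secretory pathway, and the villin promoter restricts the tamoxifen-inducible Cre to intestinal epithelium, so that other cells of a tumor keep the gene. Tamoxifen was given to Villin-WlscKO mice in 5 injections at 80 mg/kg that began 30 days before collection, and controls had none unless stated otherwise. How many mice gave the 5 tumors of a group was not stated, so that n counts tumors and p-values measure the spread between them.

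The proteasome is the barrel-shaped protease that degrades ubiquitin-tagged proteins. Its 20S core is a stack of rings of alpha and beta subunits, in which Psmb5, Psmb6 and Psmb7 carry the active sites, and the 19S cap recognizes, unfolds and feeds in substrates. Interferons induce Psmb8, Psmb9 and Psmb10, which take the places of Psmb5, Psmb6 and Psmb7 in newly assembled cores, together with the PA28 alpha and beta subunits, and this immunoproteasome produces peptides suited to presentation by MHC class I. In the gut the inducible subunits are found in leukocytes and, during inflammation, in epithelium.

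Wls was between 61.3 and 79.9 FPKM in the control tumors and between 2.03 and 11.7 FPKM in the Villin-WlscKO tumors, with no overlap. Xist, transcribed from the inactive X chromosome, was at most 0.420 FPKM in controls and at least 439 FPKM in Villin-WlscKO tumors, and the Y-linked Eif2s3y was at least 30.4 and at most 0.138 FPKM. Markers of sex therefore differed with the genotype, as tamoxifen did, and the effects of sex, tamoxifen and genotype on any result below cannot be told apart. The squamous keratin Krt5 reached 470 and 669 FPKM in Villin-WlscKO tumors 2 and 3 and at most 0.315 FPKM in the other 8. All 10 markers of colon epithelium were measured, with a sum of 6146 to 8689 FPKM in controls and 7547 to 9683 FPKM in Villin-WlscKO tumors. Read numbers are unknown, so precision rests on the tumors of a group. FPKM summed to between 1207683 and 1533885 per tumor, with medians between 11.3 and 12.2.

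The inducible subunits rose and the bulk of the proteasome moved little. All 5 of the immunoproteasome and PA28 alpha and beta entries were higher in Villin-WlscKO tumors past an adjusted p of 0.05 (limma on log2(FPKM + 1), Benjamini-Hochberg over 16757 genes), against 6.12% of all genes tested. In all 5 the lowest Villin-WlscKO tumor lay above the highest control tumor, which held for 5.33% of all genes. Their median change was 1.44 on the log2 scale. Of the other 41 entries, 34 had a higher mean, though only 23 did under quantile normalization, and 2 of them, Psma6 and Psmb3, passed the threshold. Those 2 make up 4.88% of the 41, which is near the share among all genes. The median change of the 41 was 0.10, beside 0.01 over all genes tested, of which 51.4% were higher. None of the 46 was lower past the threshold (limma, 0 entries, against 4.75% of all genes), and Psmd8 and Psmg2 were lower at an unadjusted p under 0.05. At that unadjusted cut 15 of the 46 were higher, 10 of them among the other 41 entries. Of all 16757 genes tested, 2321 were higher and 1987 lower at the same cut.

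**Figure D1:**
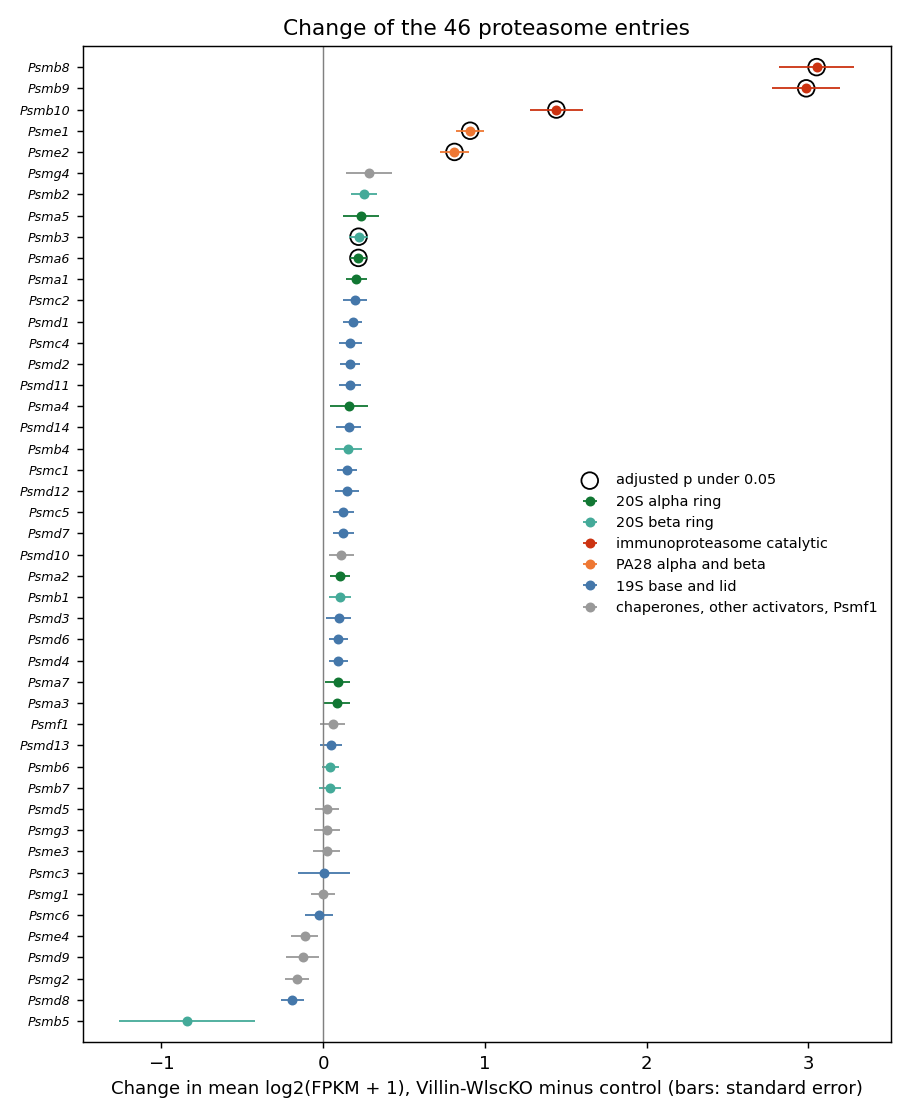
Change of each of the 46 proteasome entries between the 5 Villin-WlscKO and the 5 control tumors, on the horizontal axis as the difference of mean log2(FPKM + 1), with bars of 1 standard error and a black ring where the adjusted p was under 0.05. The 5 inducible entries stand to the right, from 0.81 to 3.05, the other 41 lie between -0.84 and 0.29, and Psmb5 has the widest bar.

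Psmb8 (beta5i, the inducible chymotrypsin-like subunit) was measured at 28.7, 27.7, 29.6, 21.7 and 21.7 FPKM in control tumors 1 to 5. In Villin-WlscKO tumors 1 to 5 it was measured at 141, 269, 302, 152 and 294 FPKM. Every Villin-WlscKO tumor lay far above every control, and tumors 1 and 4 were the lowest of them. The mean went from 25.9 ± 3.88 to 232 ± 78.6 FPKM (SD, n = 5 tumors each), an 8.95-fold difference, with a log2 change of 3.05 (SE 0.230, adjusted p = 3.15e-05). Since a tumor is a mixture of cells, more cells of a type that expresses the gene and more RNA per cell cannot be told apart here.

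Psmb9 (beta1i, which takes the place of the caspase-like subunit) gave 15.6, 16.0, 14.2 and 11.3 FPKM in control tumors 1, 2, 3 and 5, and control tumor 4 lay between tumors 3 and 5. The Villin-WlscKO tumors gave 83.0, 136, 141, 79.2 and 170 FPKM, again with no overlap and with tumors 1 and 4 lowest. The means were 13.9 ± 2.00 and 122 ± 39.4 FPKM, a log2 change of 2.99 (SE 0.211, adjusted p = 1.96e-05). Psmb8 and Psmb9 kept nearly the same proportion in each tumor: the log2 ratio of Psmb8 to Psmb9 was between 0.79 and 1.06 in controls and between 0.77 and 1.10 in Villin-WlscKO tumors.

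Psmb10 (beta2i, the inducible trypsin-like subunit) was the most abundant of the 3 in controls, at 40.4, 50.5, 51.5, 39.1 and 41.0 FPKM. It was measured at 105, 136, 146, 85.2 and 152 FPKM in the Villin-WlscKO tumors. These groups did not overlap, but the mean rose only from 44.5 ± 5.97 to 125 ± 28.5 FPKM, a log2 change of 1.44 (SE 0.162, adjusted p = 0.000412). Summed over Psmb8, Psmb9 and Psmb10, the level was 73.3 to 95.3 FPKM in controls and 317 to 615 FPKM in Villin-WlscKO tumors.

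**Figure D2:**
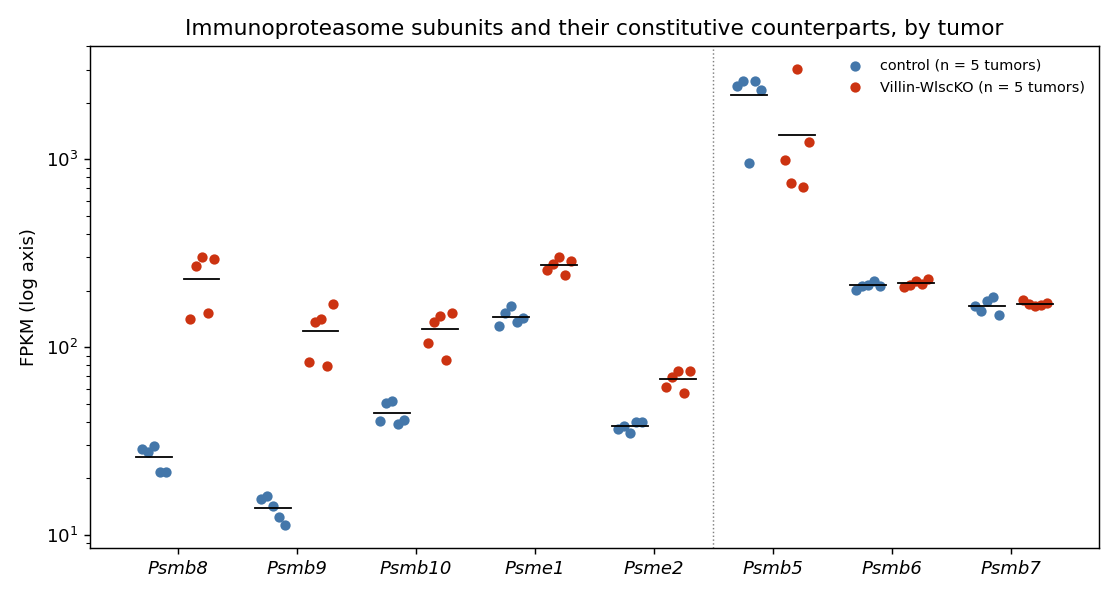
FPKM of the 5 inducible entries and of the 3 constitutive catalytic subunits on a logarithmic axis, with 1 point per tumor and a black line at the mean of each group of 5. Psmb8, Psmb9, Psmb10, Psme1 and Psme2 separate the groups, Psmb6 and Psmb7 overlap within a narrow band, and Psmb5 spreads from 711 to 3036 FPKM.

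Psmb8 and Psmb9 are neighbours in the MHC class II region of chromosome 17 and flank Tap1, which encodes a subunit of the peptide transporter. On GRCm38 (GENCODE M21), Psmb9 occupies chr17:34181987-34187764 on the minus strand, Tap1 chr17:34187553-34197225 on the plus strand, Psmb8 chr17:34197721-34201454 on the plus strand and Tap2, the other transporter subunit, chr17:34203527-34216321 on the plus strand. The annotated 5' ends of Psmb9 and Tap1 overlap on opposite strands, and Psmb8 lies opposite the antisense gene Gm20496. Tap1 rose by a log2 change of 3.03 (SE 0.222, adjusted p = 2.52e-05), from between 6.62 and 11.9 FPKM in controls to between 53.8 and 106 FPKM in Villin-WlscKO tumors. Tap2 changed by 2.22 (SE 0.187, adjusted p = 6.10e-05). Psmb10 stands alone at chr8:105935735-105938444 on the minus strand, opposite the antisense gene Gm16156. The libraries were stranded, but whether strand was used in quantification was not stated.

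The windows around the transcript starts are shown for Psmb8 and Psme1, which hold a match to an interferon-related motif, for Psmb9, which rose as much as Psmb8 and holds none, and for Psmb6, the constitutive counterpart of Psmb9. Each runs 5' to 3' on the gene's strand from 250 bases before to 50 bases after the RefSeq start (GRCm38.p6), with motif matches in capitals. Psmb8 is at chr17:34197945-34198244 (plus), Psmb9 at chr17:34187281-34187580 (minus), Psme1 at chr14:55578244-55578543 (plus) and Psmb6 at chr11:70525107-70525406 (plus).
Psmb8: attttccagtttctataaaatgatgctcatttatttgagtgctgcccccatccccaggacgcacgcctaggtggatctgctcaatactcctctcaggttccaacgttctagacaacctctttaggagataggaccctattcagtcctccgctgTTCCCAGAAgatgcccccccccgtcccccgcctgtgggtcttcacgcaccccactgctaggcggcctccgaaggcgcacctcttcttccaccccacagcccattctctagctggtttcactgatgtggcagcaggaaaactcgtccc
Psmb9: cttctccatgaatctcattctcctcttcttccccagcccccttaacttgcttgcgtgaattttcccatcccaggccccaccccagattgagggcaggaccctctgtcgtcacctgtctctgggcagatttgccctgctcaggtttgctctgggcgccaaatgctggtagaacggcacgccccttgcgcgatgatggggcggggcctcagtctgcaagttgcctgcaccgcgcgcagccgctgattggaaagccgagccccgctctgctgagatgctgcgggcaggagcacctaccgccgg
Psme1: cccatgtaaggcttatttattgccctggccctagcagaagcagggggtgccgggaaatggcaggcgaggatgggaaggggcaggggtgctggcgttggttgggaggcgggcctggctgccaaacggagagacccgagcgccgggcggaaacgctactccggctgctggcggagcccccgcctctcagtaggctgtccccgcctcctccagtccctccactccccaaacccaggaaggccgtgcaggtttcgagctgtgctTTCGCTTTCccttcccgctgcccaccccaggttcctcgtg
Psmb6: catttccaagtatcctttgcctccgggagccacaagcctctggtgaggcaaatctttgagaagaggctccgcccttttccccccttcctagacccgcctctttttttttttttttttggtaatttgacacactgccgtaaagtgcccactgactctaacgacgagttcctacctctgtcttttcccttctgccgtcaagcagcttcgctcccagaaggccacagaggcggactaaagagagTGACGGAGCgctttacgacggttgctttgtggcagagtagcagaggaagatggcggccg

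Searched on both strands were GAAANNGAA, the core of the interferon-stimulated response element (ISRE) read by IRF factors, TTCNNNGAA, the gamma-activated site (GAS), and TGACNNNGC, the core of the antioxidant response element (ARE) read by NRF factors. The Psmb8 window holds the GAS match TTCCCAGAA from position -97, counted with the start as 1. The Psme1 window holds the ISRE match TTCGCTTTC, on the opposite strand, from position 11. The Psmb6 window holds the ARE match TGACGGAGC from position -9, and none of the printed matches overlaps another. The window of Psmb5, which is not printed, also holds an ARE match, from position -47. Windows of Psmb9, Psmb10 and Psme2 hold none of the 3 motifs. The windows of Psmb8, Psmb9 and Psme1 lie wholly inside the GENCODE bounds of these genes. Sequence before the GENCODE starts of these genes was therefore not searched. Among 32851 RefSeq windows of this length, 8.56% hold the ISRE core, 8.3% the GAS and 12.4% the ARE core, so that a match is common by itself. A window was matched for 39 of the 46 members. Of the 34 that belong to constitutive entries, 6 hold the ISRE core, 2 the GAS and 6 the ARE core.

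The activator rose less than the catalytic subunits. Psme1 (PA28 alpha), on chr14:55578123-55581529, was measured at 129, 151, 166, 136 and 143 FPKM in controls. The Villin-WlscKO tumors had 257, 277, 302, 242 and 286 FPKM, so that the groups lay well apart. Its mean changed 1.88-fold, from 145 ± 14.4 to 273 ± 23.7 FPKM, with a log2 change of 0.91 (SE 0.086, adjusted p = 0.000122). Psme1 overlaps Emc9, which lies on the opposite strand.

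Psme2 (PA28 beta), on chr14:55587441-55591113, is the partner of Psme1 in the PA28 ring and lies close to it. Controls had 36.8, 37.8, 34.7, 39.8 and 39.8 FPKM. Villin-WlscKO tumors had 61.5, 69.3, 74.8, 56.8 and 74.7 FPKM, with no overlap and a 1.78-fold difference of the means (log2 change 0.81, SE 0.087, adjusted p = 0.000293). A further entry that the naming rule leaves out, Psme2b, is annotated as a retrogene of the same family, and it was higher than Psme2 in every tumor, at 127 to 150 FPKM in controls and 234 to 307 FPKM in Villin-WlscKO tumors (log2 change 0.99, adjusted p = 8.7e-05). Psme2b was chosen after its values were seen. How reads that match both copies were divided was not stated, so the level of Psme2 is uncertain. The sum of both entries was 164 to 185 FPKM in controls and 290 to 382 FPKM in Villin-WlscKO tumors.

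Each inducible subunit was next set against the constitutive subunit whose place it takes, within each tumor. Psmb6 (beta1, caspase-like) was measured at 202, 212, 215, 225 and 211 FPKM in controls and at 208, 215, 226, 217 and 231 FPKM in Villin-WlscKO tumors. Psmb7 (beta2, trypsin-like) was measured at 166, 155, 175, 185 and 148 FPKM and at 177, 170, 165, 168 and 172 FPKM. Neither passed the threshold, with log2 changes of 0.04 (SE 0.054, adjusted p = 0.669) and 0.04 (SE 0.068, adjusted p = 0.748), and their values overlapped in both groups. Under quantile normalization both changes turned to negative values of less than 0.1 in size.

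Psmb5 (beta5, chymotrypsin-like) stood apart from the other core subunits by its level and its spread. Controls had 2443, 2607, 952, 2604 and 2336 FPKM, and Villin-WlscKO tumors had 994, 748, 3036, 711 and 1239 FPKM. The ranges overlapped, and the log2 change of -0.84 (SE 0.418, adjusted p = 0.238) did not pass the threshold. These values stand also for Mir686, a hairpin gene of 109 bases at chr14:54616677-54616785 that lies inside Psmb5 (chr14:54614119-54618022) on the same strand. The mean of 2189 FPKM in controls compares with 314 FPKM for Psma7, the highest of the other 40 constitutive entries, and the level of Psmb5 itself cannot be read from this entry.

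Psmb9 made up 7.16, 7.03, 6.19, 5.26 and 5.10% of the summed FPKM of Psmb9 and Psmb6 in controls. In Villin-WlscKO tumors its share was 28.5, 38.7, 38.4, 26.7 and 42.4%. Every Villin-WlscKO share was above every control share, and the log2 ratio differed by 3.03 (SE 0.227), or 8.18-fold (two-sided exact permutation test, p = 0.00794). That is the smallest p that the 252 arrangements of 5 against 5 tumors can give, and it was the same for the 3 ratios tested and after adjustment over them. Psmb10 made up 17.4 to 24.6% of Psmb10 and Psmb7 in controls and 33.6 to 46.9% in Villin-WlscKO tumors, a 2.67-fold difference in the ratio (log2 1.42, SE 0.197). Psmb8 made up 0.827 to 3.02% of Psmb8 and Psmb5 in controls and 9.04 to 26.5% in Villin-WlscKO tumors (log2 3.94, SE 0.466), a share that inherits the uncertain level of Psmb5. Transcript shares do not give the subunit makeup of assembled particles, which was not measured here.

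**Figure D3:**
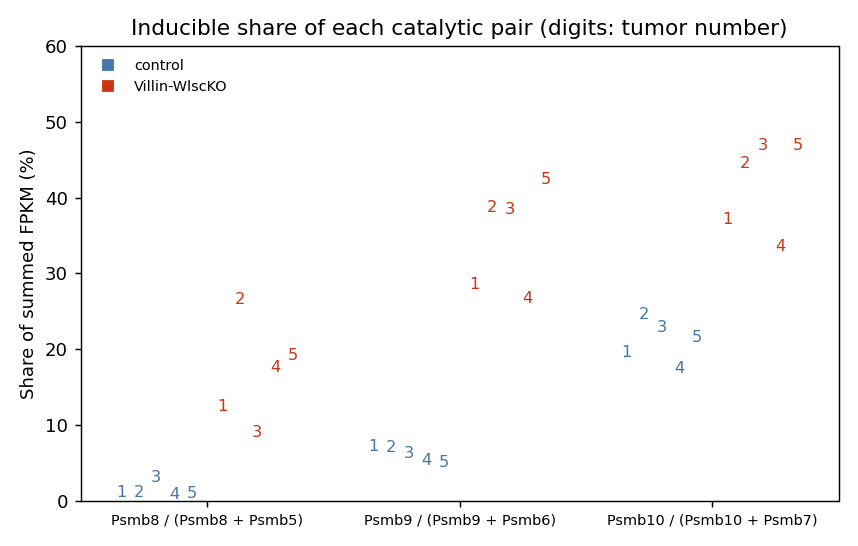
Share of the inducible subunit in the summed FPKM of each catalytic pair, in percent on a linear axis from 0, with each tumor drawn as its number. Psmb9 goes from 5.10 to 7.16% in controls to 26.7 to 42.4% in Villin-WlscKO tumors, and Villin-WlscKO tumors 1 and 4 are the lowest for Psmb9 and Psmb10.

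Among Villin-WlscKO tumors, tumors 2, 3 and 5 had the higher and tumors 1 and 4 the lower levels of each of the 5 inducible entries. For Psmb8 the step was from 152 to 269 FPKM, and for Psme1 from 257 to 277 FPKM. The same tumors were the higher ones for Tap1 and for H2-K1, which encodes a class I heavy chain. Tumors 2 and 3 held the squamous keratin Krt5 and tumor 5 did not, at 0.0703 FPKM. Without tumors 2 and 3 all 5 entries still passed the threshold, while Psma6 and Psmb3 did not (adjusted p = 0.0774 for Psma6), although their log2 changes were as large on the 8 tumors, at 0.23 for both.

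**Figure D4:**
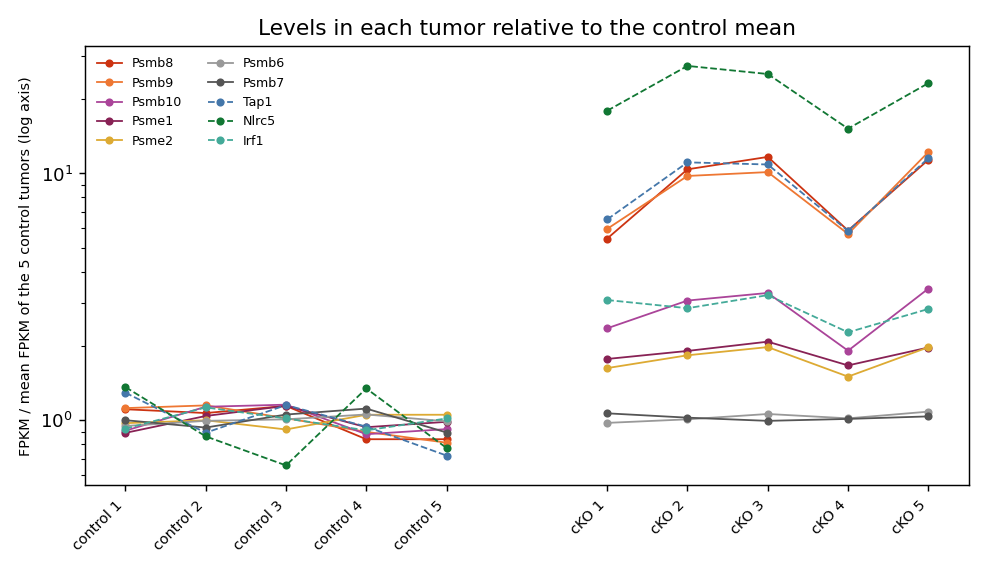
Level in each tumor divided by the mean of the 5 control tumors, on a logarithmic axis. Solid lines join the values of proteasome entries and dashed lines those of Tap1, Nlrc5 and Irf1, and the tumors have no order. Psmb8, Psmb9 and Tap1 run close together, with Villin-WlscKO tumors 1 and 4 the lowest, while Psmb6 and Psmb7 stay near the control mean.

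The alpha ring forms the gate of the 20S core, and each of its 7 entries had a higher mean in Villin-WlscKO tumors (median log2 change 0.16), 5 of them under quantile normalization. Psma6 (alpha1) was the one that passed the threshold. It was measured at 159, 139, 151, 148 and 145 FPKM in controls and at 175, 170, 171, 172 and 174 FPKM in Villin-WlscKO tumors. Its log2 change was 0.22 (SE 0.052, adjusted p = 0.0228). The groups did not overlap, and the 1.16-fold difference of the means was small beside those of the inducible entries. Psma1 (alpha6) had a log2 change of 0.20 (SE 0.063, adjusted p = 0.0645). Psma7 (alpha4) was the highest of the ring, at 314 FPKM in controls and 333 FPKM in Villin-WlscKO tumors, and Psma5 (alpha5) was the lowest in controls, at 44.3 FPKM, with 52.4 FPKM in Villin-WlscKO tumors. The sum of the ring was 900 to 1034 FPKM in controls and 1014 to 1112 FPKM in Villin-WlscKO tumors.

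All 4 beta subunits without an active site had a higher mean in Villin-WlscKO tumors (3 under quantile normalization), and 1 passed the threshold. Psmb3 (beta3) had 93.4, 96.8, 91.1, 91.2 and 92.2 FPKM in controls. Villin-WlscKO tumors had 100, 112, 104, 109 and 118 FPKM, above every control, with a log2 change of 0.22 (SE 0.057, adjusted p = 0.0346). Psmb2 (beta4) changed by 0.25 (SE 0.080, adjusted p = 0.0763) with overlapping groups. Psmb1 (beta6), the highest of the 4, had means of 294 and 317 FPKM, and Psmb4 (beta7) 255 and 284 FPKM. The calls of Psma6 and Psmb3 depend on the processing: Psma6 lost its call in 6 of 22 alternatives and Psmb3 in 13. Leaving out control tumor 2, 4 or 5 in turn ended the call of Psma6 (adjusted p = 0.0590, 0.0519 and 0.0609). The call of Psmb3 ended without any 1 of the control tumors and without Villin-WlscKO tumor 2, 3, 4 or 5, with adjusted p between 0.0522 and 0.0784.

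None of the 17 entries of the 19S base and lid passed the threshold in limma. Of these 17, all caught by the naming rule, 15 had a higher mean (12 under quantile normalization). At an unadjusted p under 0.05, 6 were higher and 1 lower, beside 2321 higher and 1987 lower of all 16757 genes tested. The 6 ATPases of the base, which unfold substrates and open the core, had a median log2 change of 0.14. They ranged in controls from Psmc1 (Rpt2) at 67.2 FPKM to Psmc3 (Rpt5) at 174 FPKM, and their sum was 566 to 672 FPKM in controls and 585 to 715 FPKM in Villin-WlscKO tumors. The 3 other base subunits caught by the naming rule are scaffolds and receptors for ubiquitin. The scaffolds Psmd1 (Rpn2) and Psmd2 (Rpn1) changed by 0.18 (SE 0.059, adjusted p = 0.0772) and 0.17 (SE 0.063, adjusted p = 0.125), and the ubiquitin receptor Psmd4 (Rpn10) by 0.09 (SE 0.060). Psmd1 is one of the entries whose values stand for several genes.

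The lid removes ubiquitin chains, and its 8 entries had a median log2 change of 0.11. Psmd14 (Rpn11), the deubiquitinase, had means of 73.4 and 81.9 FPKM (log2 change 0.16, SE 0.075, adjusted p = 0.218). Psmd11 (Rpn6), the lowest of the lid, had means of 39.8 and 44.7 FPKM. Psmd8 (Rpn12), the highest, had 186, 172, 174, 181 and 171 FPKM in controls and 150, 148, 142, 181 and 156 FPKM in Villin-WlscKO tumors. It was the lowest in log2 change after Psmb5, at -0.19 (SE 0.070, adjusted p = 0.115), and Villin-WlscKO tumor 4 was the tumor that lay within the control range. Without that tumor the change was -0.25 and passed the threshold (adjusted p = 0.0267).

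The remaining entries help assembly or replace the 19S cap. Of the 19S chaperones, Psmd5, Psmd9 (p27) and Psmd10 (gankyrin), and the 20S chaperones, Psmg1 to Psmg4, none passed the threshold in limma, with 0 higher and 1 lower (Psmg2, unadjusted p = 0.0483) at an unadjusted p under 0.05. Of all 16757 genes tested, 6.12% were higher and 4.75% lower past the threshold, and 2321 higher and 1987 lower at the unadjusted cut. Psmg4 (PAC4) had the largest change of these chaperones, at 0.29 (SE 0.141, adjusted p = 0.239). Psmg3 (PAC3), the highest of them, had means of 63.4 and 64.4 FPKM, and Psmd10, the lowest, 21.0 and 22.8 FPKM. The nuclear activators Psme3 (PA28 gamma) and Psme4 (PA200) had log2 changes of 0.02 (SE 0.082, adjusted p = 0.904) and -0.11 (SE 0.082, adjusted p = 0.426). Psme3 belongs to the same family as Psme1, yet the log2 ratio of Psme1 to Psme3 was 0.80 to 1.30 in controls and 1.76 to 2.33 in Villin-WlscKO tumors. Psmf1 (PI31), an inhibitor or adaptor of the core, had means of 23.6 and 24.6 FPKM.

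The proteasome entries varied less between tumors of a group than genes did in general, with a median SD within groups of 0.109 on the log2 scale, against 0.208 over all genes tested. For the 3 inducible catalytic subunits it was 0.372. The lowest control mean among the 46 proteasome entries was 13.9 FPKM, whereas the filter kept genes down to a mean of 0.5 FPKM. No comparison with genes of similar level was made.

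Another 26 genes work with the proteasome or belong to it under other names. They include transcription factors, shuttle proteins, ubiquitin genes and deubiquitinases. In limma 0 of them were higher and 1 was lower past the threshold, with a median change of -0.02. At an unadjusted p under 0.05, 2 were higher and 3 lower, beside 2321 higher and 1987 lower of all 16757 genes tested. A single lower call among 26 is near the 4.75% of all genes. It was Ubqln2, a shuttle for ubiquitinated proteins, which changed by -0.36 (SE 0.091, adjusted p = 0.0299). Leaving out control tumor 2, 3, 4 or 5 or Villin-WlscKO tumor 2 or 3 in turn ended that call. Pomp, the core maturation factor, had means of 8.86 ± 4.59 and 13.3 ± 4.44 FPKM (log2 change 0.60, SE 0.325, adjusted p = 0.282) and was chosen after its values were seen.

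Among 13 genes of class I peptide transport, trimming, presentation and regulation, 11 were higher past the threshold and 0 were lower. Over all genes tested, 6.12% were higher and 4.75% lower past it. The median log2 change of the 13 was 0.99. Nlrc5, the transactivator of class I genes, had the largest, at 3.59 (SE 0.179, adjusted p = 1.92e-06), from a mean of 1.16 ± 0.385 to 25.2 ± 5.91 FPKM. B2m, the light chain of class I molecules, changed by 3.48 (SE 0.228, adjusted p = 1.14e-05) and H2-K1 by 2.60 (SE 0.207, adjusted p = 4.61e-05). Erap1, which trims peptides in the endoplasmic reticulum, changed by 0.90 (SE 0.072, adjusted p = 4.83e-05). The chaperone Canx (0.26, adjusted p = 0.203) and the cytosolic aminopeptidase Lap3 (-0.29, adjusted p = 0.351) did not pass.

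Of 9 genes of interferon-gamma signalling tested, 5 were higher past the threshold and 0 were lower, beside 6.12% and 4.75% of all genes. Irf1, the transcription factor that acts on immunoproteasome promoters, was at a mean of 48.8 ± 4.26 FPKM in controls and 139 ± 17.5 FPKM in Villin-WlscKO tumors, with a log2 change of 1.48 (SE 0.098, adjusted p = 1.18e-05). Among the others were Irf9, at a log2 change of 0.77, the receptor chain Ifngr1 at 0.59 and the feedback inhibitor Socs1, whose mean went from 3.19 to 12.1 FPKM. The other receptor chain, Ifngr2, had means of 131 ± 7.96 and 109 ± 17.8 FPKM (log2 change -0.27, adjusted p = 0.134) and did not pass. Irf9 shares all its values with Rnf31. Ifng itself fell below the filter and had no test. It was listed at 0 in 4 control tumors and at 0.0584 FPKM in the other, and at 0.648, 1.35, 0.719, 0.185 and 0.387 FPKM in Villin-WlscKO tumors 1 to 5. Of 6 ubiquitin-like modifiers and their enzymes that interferon induces, 4 rose and 0 were lower past the threshold (6.12% and 4.75% of all genes). Those that rose were Ubd (FAT10, which delivers proteins to the proteasome) at 3.02, Isg15 at 1.83, its conjugating enzyme Ube2l6 at 1.35 and the ligase Herc6 at 0.81. The deconjugating protease Usp18 had a log2 change of -0.43 (adjusted p = 0.395). Ifngr2 and Usp18 were chosen after their values were seen.

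Leukocyte markers were read beside the inducible entries, and their counts stand against the 6.12% of all genes that were higher past the threshold. Counts at an unadjusted p under 0.05 stand against 2321 higher and 1987 lower of all 16757 genes tested. Of 10 T and NK cell markers, none of them listed at 0 in a tumor, 7 were higher past the threshold (9 at an unadjusted p under 0.05), and their summed FPKM was 8.36 to 16.9 in controls and 20.4 to 51.7 in Villin-WlscKO tumors. Cd8a, at most 0.184 FPKM in a control tumor, went from a mean of 0.0923 ± 0.0551 to 1.04 ± 0.430 FPKM. Cd4, the 1 marker of these 10 with a negative change, had means of 3.07 ± 1.41 and 2.88 ± 1.02 FPKM (limma, log2 change -0.05, adjusted p = 0.940). It was chosen after its values were seen. Of 7 B and plasma cell markers 1 passed (6 higher at an unadjusted p under 0.05), with sums of 27.5 to 129 FPKM and 69.6 to 360 FPKM. One of 10 macrophage and dendritic cell markers passed (1 at an unadjusted p under 0.05), with sums of 423 to 997 FPKM and 386 to 714 FPKM. None of 5 neutrophil markers passed in limma (4 higher at an unadjusted p under 0.05), with sums of 135 to 670 FPKM and 430 to 1105 FPKM. The 6 pan-leukocyte markers summed to 87.6 to 147 FPKM and 96.4 to 228 FPKM, and 1 of them passed (2 at an unadjusted p under 0.05). One of the 10 colon epithelium markers (6 at an unadjusted p under 0.05), 0 of 6 fibroblast markers (0 also at an unadjusted p under 0.05) and 1 of 6 squamous markers (1 at an unadjusted p under 0.05) were higher past the threshold, and none was lower. The part of these cells in the levels of the inducible subunits was not tested.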

How the data were processed

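Messenger RNA of macrodissected colon tumors had been sequenced from stranded libraries (5 control and 5 Villin-WlscKO). Per the methods and the submitters' processing notes, the authors ran FastQC on the reads, aligned them with TopHat2 2.1.1 to GRCm38.p5 and deposited FPKM from Cufflinks 2.2.1 and Cuffdiff. The annotation release was not given in the sources used here. Labels matched all 10 columns to tumors and left 0 columns over. FPKM keep no read numbers, so no counting error could be given.

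From these values, limma 3.58.1 in R 4.3.3 compared log2(FPKM + 1) over the 10 tumors, for the 16757 genes whose mean reached 0.5 FPKM. The pseudocount was 1, the variance trend of eBayes was used without covariates, and p-values were adjusted by Benjamini-Hochberg with a threshold of 0.05. Fold changes on this scale understate the change of low genes. Ratios between 2 entries of a tumor were compared with an exact permutation test. The script was tested on simulated data. Summaries and figures used numpy 2.4.6, scipy 1.17.1, pandas 2.3.3 and, for plots, matplotlib 3.10.9 under Python 3.11.15. Gene positions are those of GENCODE M21 (GRCm38), and start windows are those of RefSeq (GRCm38.p6).

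The members, the 12 gene lists and the tests were chosen with earlier results of these data known. By rule, any proteasome entry could be named. The inducible entries, their counterparts and other entries past the threshold were given tumor by tumor, with the highest and lowest entry of each class and up to 6 past the threshold of each list. The values of 1 list gene are not reported here. Alternatives were scaling to an FPKM sum of 1000000, by median of ratios or by quantile normalization, a filter at a mean of 5 FPKM or none, a pseudocount of 0.1, eBayes with no variance trend or robust, tumor quality weights, a replicate block, identical entries once and each tumor left out in turn. Leaving out both tumors with high Krt5 was added after the data had been seen. Numbers shared by a control and a Villin-WlscKO tumor do not pair them: correlations of their deviations from the group means were 0.0638, -0.0868, 0.0626, 0.1 and 0.162.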

Additional observations from a re-analysis of the deposited data

Results flagged for a closer look

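In 92 groups of 5 tumors (46 entries in 2 groups), 4 had a tumor whose log2(FPKM + 1) stood apart from the rest of its group by more than Dixon's 95% critical value, and chance alone flags about 1 in 20 groups. Psmc3 was at 109 FPKM in Villin-WlscKO tumor 4 and at 187 to 206 FPKM in the other 4. The remaining 3 came from control tumor 3: Psmb5 at 952 FPKM (others 2336 to 2607), Psmd5 at 25.2 FPKM (others 30.2 to 31.6) and Psmd3 at 107 FPKM (others 91.2 to 94.2). On the FPKM scale itself 5 groups did, the same 4 and Psmb5 in Villin-WlscKO tumor 3 at 3036 FPKM (others 711 to 1239). On either scale none of the 5 inducible entries had such a tumor.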

How the results depend on the processing

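Psmb8, Psmb9, Psmb10, Psme1 and Psme2 kept their direction and their call in each of 22 alternatives, with log2 changes of 2.80 to 3.21, 2.82 to 3.12, 1.30 to 1.57, 0.77 to 1.01 and 0.74 to 0.91. The count of the other 41 entries higher past the threshold, 2 as reported, was 5 with an FPKM sum of 1000000, 1 with no variance trend, 0 with quantile normalization, with the replicate block and without both tumors with high Krt5, and 0 to 4 with 1 tumor left out. It was 0 without control tumor 2, 4 or 5, 4 without control tumor 3, and 1 without control tumor 1 or Villin-WlscKO tumor 2, 3, 4 or 5. The count of entries lower past the threshold, 0 as reported, was 1 (Psmd8) with quantile normalization and 0 to 1 with 1 tumor left out. Psmb2 passed with an FPKM sum of 1000000 (0.35, adjusted p = 0.0428). The median change of the other 41 was 0.21 with an FPKM sum of 1000000 and 0.019 with quantile normalization, and these scalings moved the median of all genes to 0.10 and -0.05. The scalings gave 1385 genes higher and 412 lower (77.1% higher) and 893 higher and 1125 lower (44.3%), against 1026 and 796 (56.3%) as reported. Quantile normalization reversed Psmb6 (-0.092) and Psmb7 (-0.083). The count of partner genes past the threshold, 1 as reported, was 0 with an FPKM sum of 1000000 and without both tumors with high Krt5, 2 with median of ratios and with quantile normalization, 3 with the replicate block and 0 to 1 with 1 tumor left out (0 without control tumor 2, 3, 4 or 5 or Villin-WlscKO tumor 2 or 3). The count of all genes past the threshold fell to 1092 without both tumors with high Krt5, a fit on fewer tumors. With the replicate block, an exact sign-flip test over 5 pairs cannot go below p = 0.0625, which the log2 ratios of Psmb8 to Psmb5 (3.94), Psmb9 to Psmb6 (3.03) and Psmb10 to Psmb7 (1.42) all gave, and the numbers do not pair the tumors. The cause of the other changes was not tested.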
